A study of Mus musculus with 8 samples.

Results

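PD-L1, the product of Cd274, is a ligand of the inhibitory T cell receptor PD-1, and its transcription in many cells follows interferon-gamma. The genes described here are the mouse Cd274 and Pdcd1lg2, which encode the ligands PD-L1 and PD-L2, and 7 genes of the interferon-gamma signalling chain, Ifngr1, Ifngr2, Jak1, Jak2, Stat3, Irf1 and Socs1. They are set by name and the rule uses no measured value, although they were picked with earlier results of these data known, and all 9 were found by Ensembl identifier among the 43629 genes counted. The RNA came from 2 early-passage cell lines of mouse B cell lymphoma, #1.2 and #1.1, both of the C57BL/6 strain and both carrying the Eμ-Myc transgene. In this transgene an immunoglobulin heavy chain enhancer drives Myc, so that it is expressed in B lineage cells, and all groups carry it. The lines received 250 nM JQ1, which displaces BET bromodomain proteins from acetylated chromatin, or its solvent DMSO, each for 2 h. The 4 groups were line 1.2 with JQ1, line 1.2 with DMSO, line 1.1 with JQ1 and line 1.1 with DMSO, with 2 libraries each and no added interferon named in the labels. Whether the libraries of a group were separate cultures is not stated in the labels, so each p-value reflects only how these libraries vary, and that variation may be technical.

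In this pathway, interferon-gamma binds a receptor made of IFNGR1, the ligand-binding chain, and IFNGR2, the chain that completes signalling. The receptor brings together the kinases JAK1 and JAK2, which phosphorylate STAT proteins, and these enter the nucleus and bind GAS elements in promoters. IRF1, a transcription factor made in response, binds ISRE elements and drives later targets, among them PD-L1. SOCS1, also made in response, inhibits the JAK kinases and so limits the signal.

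Libraries held between 10347453 and 13049877 reads assigned to genes. The 9 B cell markers checked were all expressed, with a summed level of 2810 to 3270 CPM (read counts scaled to library size, with TMM factors) with JQ1 and 3370 to 3700 CPM with DMSO, and 8 of the 9 fell with JQ1, averaged over the lines, where 31.3% of all genes fell. Markers of other cells were low. The 9 T cell markers summed to between 0.266 and 0.744 CPM with JQ1 and between 0.911 and 1.26 CPM with DMSO, with Cd3e, Cd3g, Cd4 and Cd5 at 0 reads in every library. The 5 NK cell markers summed to at most 0.176 CPM with JQ1 and to between 0.248 and 0.993 CPM with DMSO, with Ncr1, Klrk1, Nkg7 and Gzmb at 0. The 10 myeloid and dendritic markers summed to between 1.6 and 3.01 CPM with JQ1 and between 1.72 and 2.65 CPM with DMSO, with Lyz2, Itgax, Ly6g and S100a8 at 0. Of these 10, 2 could be tested. Zbtb46, a transcription factor of classical dendritic cells, had 10 and 9 reads in line 1.2 with JQ1 and 1 and 0 reads in line 1.2 with DMSO. It had 17 and 16 reads in line 1.1 with JQ1 and 2 and 2 reads in line 1.1 with DMSO, and was higher with JQ1 (adjusted p = 1.58e-06). Itgam, an integrin chain of myeloid cells, had 10 and 6 reads in line 1.2 with JQ1 and 16 and 19 reads in line 1.2 with DMSO, and 10 and 11 reads in line 1.1 with JQ1 and 17 and 10 reads in line 1.1 with DMSO. Its change was -0.70 (adjusted p = 0.0368), a call lost with DESeq2 (adjusted p = 0.204) and with the level of Gm42418, given next, as a covariate (-0.28, adjusted p = 0.665). The Itgam call was also lost, at -0.77 to -0.55, without each of 6 libraries, JQ1 replicate 2 and either DMSO replicate of line 1.2 and either JQ1 replicate and DMSO replicate 1 of line 1.1. The part of these markers in the results was not tested. The 7 stromal and erythroid markers had 6 at 0 and summed to at most 0.0826 CPM. Gm42418, a gene whose reads are commonly taken to come from ribosomal RNA, stood at 1296 and 2644 CPM in line 1.2 with JQ1 and 383 and 340.6 CPM in line 1.2 with DMSO. It stood at 474.6 and 493.1 CPM in line 1.1 with JQ1 and 361.3 and 976.5 CPM in line 1.1 with DMSO, and its part in the results was not tested except as a covariate.

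The promoters of Cd274, Irf1 and Socs1 are shown because they are the ligand, the factor that drives it and the feedback inhibitor, and because their averaged JQ1 effects were a fall for Cd274, no passing change for Irf1 and a rise for Socs1. Each line gives the 250 bases before the RefSeq start of transcription on build GRCm38.p6, written 5′ to 3′ along the gene. Capitals mark matches to the GAS motif TTCNNNGAA or to the ISRE motif GAAANNGAAA, searched on both strands over these bases and the 50 that follow the start.
Cd274, chr19:29367188-29367437, plus strand: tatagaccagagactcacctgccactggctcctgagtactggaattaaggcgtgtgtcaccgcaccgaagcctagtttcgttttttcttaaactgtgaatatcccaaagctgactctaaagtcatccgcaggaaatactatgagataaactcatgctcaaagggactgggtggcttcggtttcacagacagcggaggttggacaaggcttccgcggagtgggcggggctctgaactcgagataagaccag
Irf1, chr11:53769764-53770013, plus strand: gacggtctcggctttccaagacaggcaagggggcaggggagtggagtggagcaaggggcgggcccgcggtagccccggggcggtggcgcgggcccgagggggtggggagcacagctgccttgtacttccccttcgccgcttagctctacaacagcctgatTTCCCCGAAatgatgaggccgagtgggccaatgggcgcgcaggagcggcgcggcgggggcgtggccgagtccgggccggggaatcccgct
Socs1, chr16:10785537-10785786, minus strand: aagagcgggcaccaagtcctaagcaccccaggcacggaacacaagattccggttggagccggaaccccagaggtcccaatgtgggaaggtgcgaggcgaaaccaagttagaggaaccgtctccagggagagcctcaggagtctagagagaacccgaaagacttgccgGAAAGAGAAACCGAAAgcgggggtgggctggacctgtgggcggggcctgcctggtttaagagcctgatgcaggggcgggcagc

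The Irf1 window held 1 GAS match, 90 bases before its start. The Socs1 window held 2 overlapping ISRE matches, which begin 83 and 77 bases before its start. No match to either motif was found in the Cd274 window, nor in those of Pdcd1lg2, Stat3, Jak1, Jak2, Ifngr1 and Ifngr2, and none was found in a further Irf1 window. Among 32851 mouse promoters of the same length, 8.3% held a GAS match and 3.44% an ISRE match. The E-box CACGTG, which MYC binds, occurred in 7.15% of all promoters and the TATA box TATAAA in 8.32%, and in none of the windows of these 9 genes. The Cd274 window had 52.7% G and C, the same as the median of all promoters, and an observed-to-expected CpG ratio of 0.722, against a median of 0.384. The Pdcd1lg2 window had a CpG ratio of 0.189, the lowest of the 9 genes.

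The levels of the 9 genes spanned a wide range, set out here in CPM per kilobase of exon (RPKM), which allows genes to be compared. Jak1 was the most abundant, at 30.2 to 31.3 RPKM with JQ1 and 24.2 to 25.5 RPKM with DMSO. Ifngr1 followed with 11.1 to 12.6 RPKM with JQ1 and 9.37 to 10.5 RPKM with DMSO, and Stat3 with 10.4 to 10.9 RPKM with JQ1 and 8.08 to 8.82 RPKM with DMSO. These neighbours in the order did not overlap within a treatment. Ifngr2 had 5.89 to 6.95 RPKM with JQ1 and 6.8 to 7.94 RPKM with DMSO. Irf1 had 5.34 to 6.32 RPKM with JQ1 and 4.91 to 6.04 RPKM with DMSO, so that it overlapped Ifngr2 under JQ1 and lay below it under DMSO. Jak2 had 2.17 to 2.57 RPKM with JQ1 and 1.29 to 1.7 RPKM with DMSO, and Socs1 had 1.82 to 2.67 RPKM with JQ1 and 1.25 to 2.09 RPKM with DMSO, so the order of this pair was within their spread. Cd274 was lower than all of these, at 0.176 to 0.389 RPKM with JQ1 and 0.398 to 0.914 RPKM with DMSO. Pdcd1lg2 had 0 reads in 7 libraries and 1 read in the other.

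**Figure D1:**
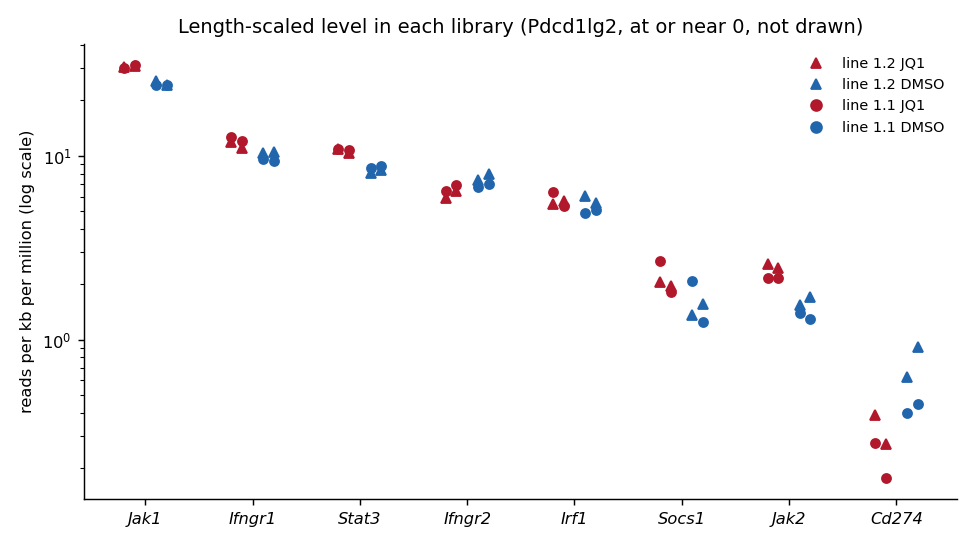
RPKM of 8 genes (log axis) in each of the 8 libraries, JQ1 in red left of DMSO in blue, triangles for line 1.2 and circles for line 1.1. Jak1 lies at 24.2 RPKM or above in every library and Cd274 below 1 RPKM in every library.

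JQ1 lowered Cd274 and raised most of the signalling chain that leads to it. Averaged over both lines, 5 of the 8 genes tested rose (Jak1, Jak2, Stat3, Ifngr1 and Socs1), 2 fell (Cd274 and Ifngr2) and Irf1 did not pass the test. The test was edgeR's quasi-likelihood test with Benjamini-Hochberg adjustment over 12413 genes and a threshold of 0.05, and every adjusted p here comes from it unless another tool is named. In this averaged comparison 30.7% of all genes tested rose and 31.3% fell, so that a change as such was common. In these bulk libraries, fewer cells that express a gene and less RNA of it per cell cannot be told apart. Changes are log2, JQ1 minus DMSO. The median over the 8 genes was 0.29, against 0.00 over all genes tested, which TMM scaling holds near 0. Rises and falls are therefore relative to the other RNAs of a library, and a shift in total RNA per cell was not tested.

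Cd274 was covered by few reads, and 511 of its exonic bases are shared with AC119228.1, an opposite-strand gene of GENCODE M21 that is not in the count file, so that with no stated strand setting reads of this overlap cannot be told apart. The libraries of line 1.2 had 16 and 11 reads with JQ1 (1.41 and 0.975 CPM) and 25 and 40 reads with DMSO (2.26 and 3.31 CPM). The libraries of line 1.1 had 12 and 7 reads with JQ1 (0.991 and 0.638 CPM) and 19 and 17 reads with DMSO (1.44 and 1.62 CPM). In each line both JQ1 libraries lay below both DMSO libraries. For the lowest of these counts, 7 reads, the 95% Poisson interval runs from 2.81 to 14.4 reads, and such intervals cover counting error only. Cd274 fell by 1.05 (SE 0.26) averaged over the lines, 2.08-fold lower with JQ1, with an adjusted p of 0.00117 (95% interval of the log2 change -1.59 to -0.51). Of all genes tested, 8.64% had a larger averaged change in either direction.

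By line, Cd274 fell by 1.23 (SE 0.33) in line 1.2, with an adjusted p of 0.00336. In line 1.1 its log2 change was -0.88 (SE 0.4) and did not pass the test (adjusted p = 0.0727). The difference of these effects was -0.34 (95% interval -1.47 to 0.78, adjusted p = 0.913), so a difference between the lines was not detectable at this depth. The averaged call held when each library was left out in turn, with changes from -1.23 to -0.90, and was lost once the Gm42418 level entered the model as a covariate, at -0.93 (adjusted p = 0.0689). The call in line 1.2 was lost without JQ1 replicate 2 (-0.99, adjusted p = 0.0554) or without DMSO replicate 2 (-0.92, adjusted p = 0.0885), with that covariate (-0.95, adjusted p = 0.405), and with DESeq2 (adjusted p = 0.0587).

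**Figure D2:**
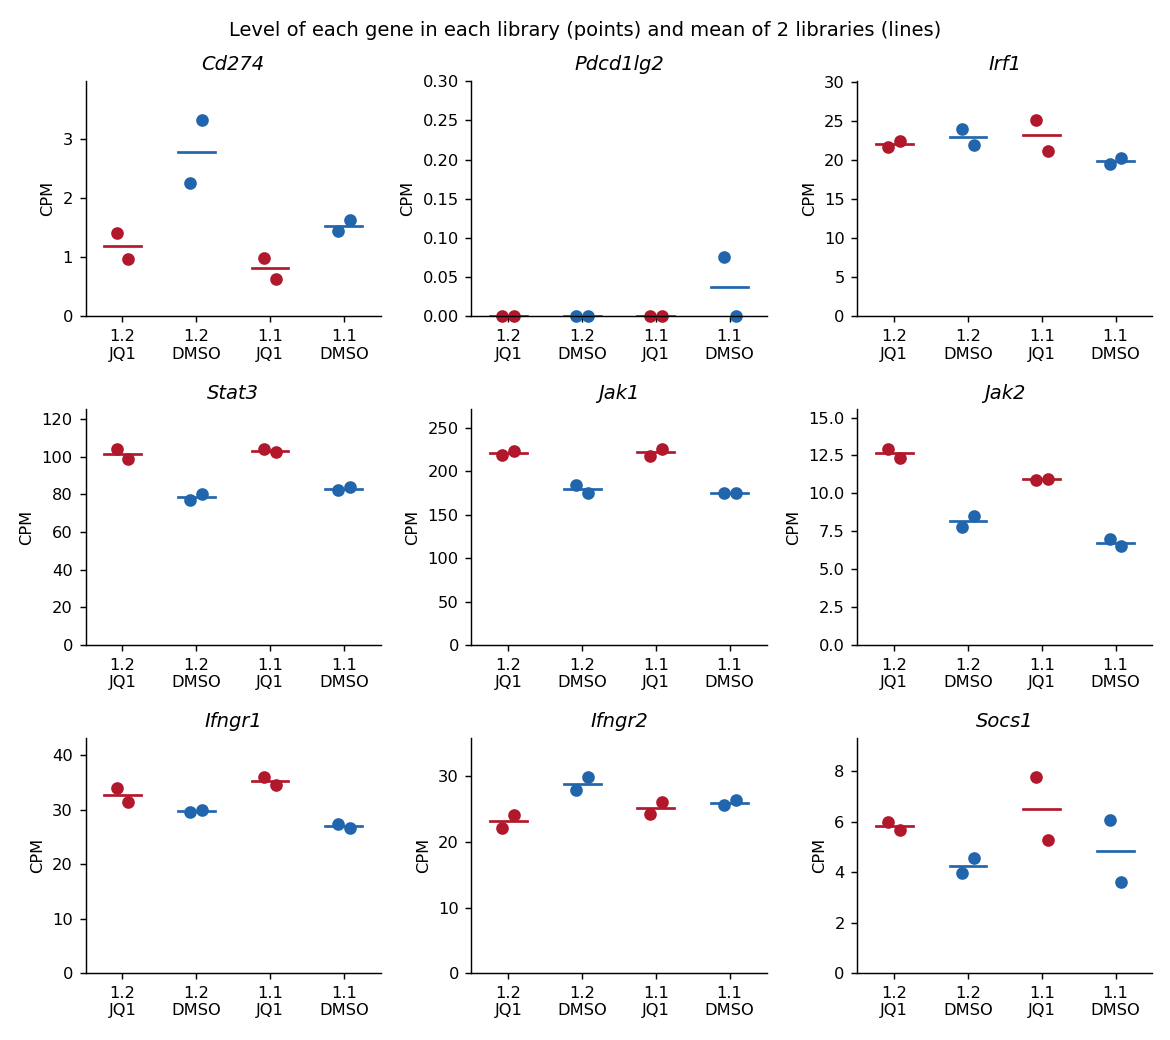
CPM of each of the 9 genes in each library (points) with the mean of the 2 libraries of a group (lines), JQ1 in red and DMSO in blue, line 1.2 left of line 1.1. For Cd274 the JQ1 libraries lie between 0.638 and 1.41 CPM and the DMSO libraries between 1.44 and 3.31 CPM.

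Pdcd1lg2, the gene of the other PD-1 ligand, was not measurable. Its only read was in DMSO replicate 1 of line 1.1, it did not pass the filter on low counts, and 3 reads, about the one-sided 95% limit for a count of 0, correspond to between 0.228 and 0.287 CPM in these libraries. PD-L2 transcripts were thus not detectable at this depth in 7 of the 8 libraries, and no JQ1 effect can be given.

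Averaged over the lines, the receptor chains moved in opposite directions, Ifngr1 up and Ifngr2 down, but in neither line alone did both chains pass the test. Ifngr1, the ligand-binding chain, averaged 32.7 ± 1.71 CPM in line 1.2 with JQ1 and 29.7 ± 0.318 CPM in line 1.2 with DMSO (SD, n = 2 each). It averaged 35.2 ± 1.05 CPM in line 1.1 with JQ1 and 27 ± 0.467 CPM in line 1.1 with DMSO (SD, n = 2 each). The JQ1 libraries were above the DMSO libraries in both lines. Ifngr1 rose by 0.26 (SE 0.057) averaged over the lines, with an adjusted p of 0.000358. It rose by 0.38 in line 1.1 (adjusted p = 0.00033). In line 1.2 its change was 0.14 and did not pass (adjusted p = 0.17).

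Ifngr2, the signalling chain, averaged 23.2 ± 1.43 CPM in line 1.2 with JQ1 and 28.9 ± 1.41 CPM in line 1.2 with DMSO (SD, n = 2 each). It averaged 25.2 ± 1.33 CPM in line 1.1 with JQ1 and 26 ± 0.559 CPM in line 1.1 with DMSO (SD, n = 2 each). The groups were apart in line 1.2 and overlapped in line 1.1, where the change was -0.04 and did not pass (adjusted p = 0.709). Ifngr2 fell by 0.18 (SE 0.063) averaged over the lines, with an adjusted p of 0.0152. This call was lost without JQ1 replicate 1 of line 1.2 (-0.15, adjusted p = 0.0815), without DMSO replicate 2 of line 1.2 (-0.16, adjusted p = 0.0705), without JQ1 replicate 1 of line 1.1 (-0.15, adjusted p = 0.0786) and with DESeq2 (-0.18, adjusted p = 0.114). In line 1.2 alone Ifngr2 fell by 0.32 (adjusted p = 0.00443), a call lost without JQ1 replicate 1 (-0.26, adjusted p = 0.0714) or DMSO replicate 2 (-0.27, adjusted p = 0.0645) of that line, with DESeq2 (adjusted p = 0.0583) and when Gm42418 was a covariate (-0.45, adjusted p = 0.0827).

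As RPKM, Ifngr1 exceeded Ifngr2 in every library. The ratio of Ifngr1 to Ifngr2 was 2.02 and 1.72 in line 1.2 with JQ1 and 1.4 and 1.33 in line 1.2 with DMSO. In line 1.1 it was 1.96 and 1.74 with JQ1 and 1.41 and 1.34 with DMSO. All JQ1 libraries had a higher ratio than all DMSO libraries. The ratio was formed after the changes of both genes had been seen and was not tested.

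Both kinases rose. Jak2, which is bound to the IFNGR2 chain, had 12.9 and 12.3 CPM in line 1.2 with JQ1 and 7.76 and 8.53 CPM in line 1.2 with DMSO. It had 10.9 CPM in each JQ1 library of line 1.1 and 6.99 and 6.5 CPM in line 1.1 with DMSO. All JQ1 libraries were above all DMSO libraries. Jak2 rose by 0.66 (SE 0.096) averaged over the lines, 1.58-fold, with an adjusted p of 2.15e-06, and by 0.63 in line 1.2 (adjusted p = 0.000332) and 0.69 in line 1.1 (adjusted p = 0.000232).

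Jak1, which is bound to the IFNGR1 chain, averaged 221 ± 3.04 CPM in line 1.2 with JQ1 and 180 ± 6.36 CPM in line 1.2 with DMSO (SD, n = 2 each). It averaged 222 ± 5.73 CPM in line 1.1 with JQ1 and 175 ± 0.283 CPM in line 1.1 with DMSO (SD, n = 2 each). It rose by 0.32 (SE 0.034), 1.25-fold, averaged over the lines, with an adjusted p of 1.5e-08. Its rise was 0.30 in line 1.2 and 0.34 in line 1.1, and the difference of the effects was -0.04 (95% interval -0.18 to 0.1).

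Stat3 encodes a STAT protein that is activated mainly by cytokines of the interleukin-6 family and also by interferons. It averaged 101 ± 3.9 CPM in line 1.2 with JQ1 and 78.5 ± 2.11 CPM in line 1.2 with DMSO (SD, n = 2 each). It averaged 103 ± 1.2 CPM in line 1.1 with JQ1 and 83.1 ± 1.37 CPM in line 1.1 with DMSO (SD, n = 2 each). It rose by 0.34 (SE 0.04), 1.27-fold, averaged over the lines, with an adjusted p of 6.59e-08. The JQ1 and DMSO libraries did not overlap in either line.

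Irf1, the factor that binds interferon-responsive elements, had 21.6 and 22.5 CPM in line 1.2 with JQ1 and 24 and 21.9 CPM in line 1.2 with DMSO. It had 25.1 and 21.2 CPM in line 1.1 with JQ1 and 19.5 and 20.3 CPM in line 1.1 with DMSO. The groups overlapped in line 1.2 and were apart in line 1.1. The averaged change was 0.09 (SE 0.07, adjusted p = 0.295), and its 95% interval ran from -0.06 to 0.23. In line 1.1 alone the change was 0.23 (adjusted p = 0.06), which passed without JQ1 replicate 2 of that line (0.34, adjusted p = 0.0198) and when Gm42418 was a covariate (0.24, adjusted p = 0.044).

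Socs1, the feedback inhibitor of JAK kinases, had 5.99 and 5.67 CPM in line 1.2 with JQ1 and 3.97 and 4.55 CPM in line 1.2 with DMSO. It had 7.77 and 5.29 CPM in line 1.1 with JQ1 and 6.08 and 3.63 CPM in line 1.1 with DMSO. The groups were apart in line 1.2 and overlapped in line 1.1, where each treatment had 1 high and 1 low library. Socs1 rose by 0.42 (SE 0.16), 1.34-fold, averaged over the lines, with an adjusted p of 0.0228. In the single lines the change was 0.45 in line 1.2 (adjusted p = 0.113) and 0.40 in line 1.1 (adjusted p = 0.125), and neither passed. The change in line 1.1 passed without JQ1 replicate 2 (0.65, adjusted p = 0.0315) or DMSO replicate 1 (0.85, adjusted p = 0.00753) of that line, and the change in line 1.2 passed with the Gm42418 covariate (1.30, adjusted p = 0.0297).

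The averaged Socs1 call was lost without JQ1 replicate 1 (0.41, adjusted p = 0.0634) or DMSO replicate 1 (0.38, adjusted p = 0.0786) of line 1.2. It was also lost without JQ1 replicate 1 (0.27, adjusted p = 0.194) or DMSO replicate 2 (0.28, adjusted p = 0.102) of line 1.1, and with DESeq2 (0.43, adjusted p = 0.0933). Without DMSO replicate 1 of line 1.1 the averaged Socs1 change was 0.65, and with the Gm42418 covariate it was 0.82.

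**Figure D3:**
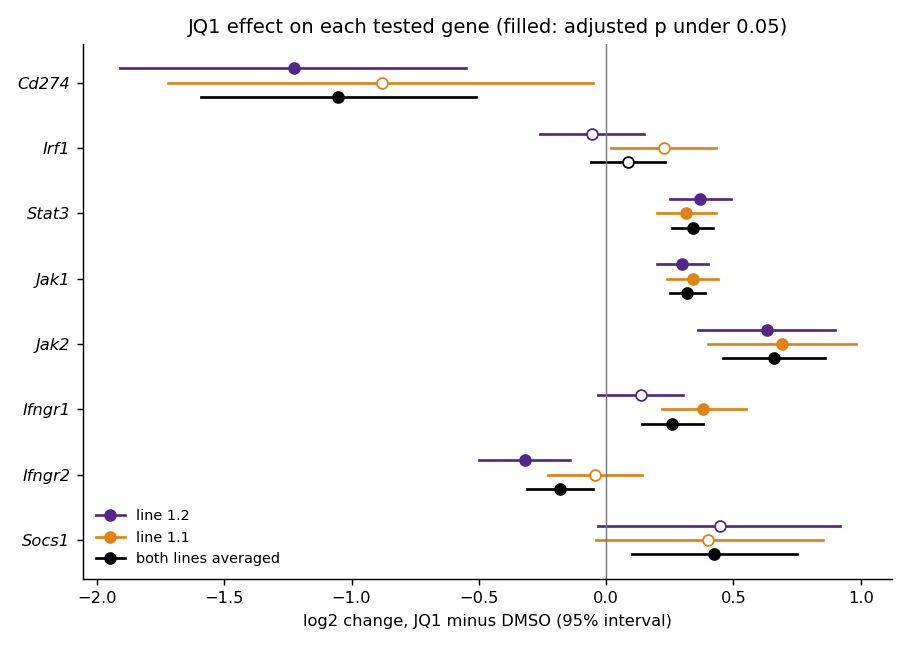
Log2 change (JQ1 minus DMSO) with its 95% interval for the 8 tested genes in line 1.2, line 1.1 and averaged over both, filled where the adjusted p is under 0.05. Averaged changes run from -1.05 for Cd274 to 0.66 for Jak2.

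Counted by line, 3 of the 8 genes rose in line 1.2 (Jak1, Jak2 and Stat3), 2 fell (Cd274 and Ifngr2) and 3 did not pass, against 24.4% of all genes rising and 25% falling there. In line 1.1, 4 of the 8 rose (the same 3 and Ifngr1), 0 fell and 4 did not pass, against 24.9% of all genes rising and 26.1% falling. Also with DESeq2 and with limma-voom 0 of the 8 fell in line 1.1, and at an unadjusted p under 0.05 1 of them, Cd274, was lower by edgeR. At that unadjusted threshold edgeR had 6984 of the 12413 genes tested changed in either direction in line 1.1. With DESeq2, 0 of the 8 fell in line 1.2, where Cd274 and Ifngr2 were lower at an unadjusted p under 0.05. For 4 genes (Stat3, Jak1, Jak2 and Ifngr1) every JQ1 library was above every DMSO library of its line in both lines, as was so for 28.8% of all genes tested. For 1 gene, Cd274, every JQ1 library was below, as was so for 29.8% of all genes.

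For 0 of the 8 genes did the difference between the lines in the response to JQ1 pass, where 0.113% of all genes passed. At an unadjusted p under 0.05, 2 of them differed by edgeR, Ifngr2 by -0.28 and Ifngr1 by -0.25 (line 1.2 minus line 1.1), with adjusted p-values of 0.592 and 0.603. Of the 12413 genes tested, 1000 differed in response at that unadjusted threshold. The difference in level between the lines also passed for 0 of the 8, under DMSO and under JQ1. At an unadjusted p under 0.05, edgeR had 2 of them higher in line 1.2 under DMSO, Cd274 and Irf1, and 0 under JQ1. At that threshold 2512 of the 12413 genes tested differed in either direction under DMSO and 2603 under JQ1. DESeq2 and limma-voom likewise called 0 of the 8 in these 3 comparisons. Among all genes, 3.59% were higher and 3.17% lower in line 1.2 than in line 1.1 under DMSO, and 3.49% were higher and 2.92% lower under JQ1. The largest line difference of the 8 was that of Cd274 under DMSO, 0.87 higher in line 1.2 with an adjusted p of 0.0923 (95% interval 0.24 to 1.51).

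Cd274, Pdcd1lg2 and Jak2 lie close together on chromosome 19, and the genes around Cd274 did not move as a block. On build GRCm38, GENCODE M21 places Cd274 at chr19:29367455-29388095 on the plus strand, Pdcd1lg2 43.5 kb downstream of its start and Jak2 115.6 kb upstream. Plgrkt, which encodes a plasminogen receptor, starts 65 bases from Cd274 on the minus strand, so that the pair share a promoter region and are transcribed away from each other. Plgrkt had 3.79 and 3.46 CPM in line 1.2 with JQ1 and 5.6 and 4.97 CPM in line 1.2 with DMSO. Plgrkt had 3.88 and 3.56 CPM in line 1.1 with JQ1 and 4.56 and 4.59 CPM in line 1.1 with DMSO. It fell by 0.42 (SE 0.143, adjusted p = 0.014), with all JQ1 libraries below all DMSO libraries. This call was lost with DESeq2 (adjusted p = 0.114), with Gm42418 as a covariate (adjusted p = 0.155) and without DMSO replicate 1 of line 1.2 (-0.38, adjusted p = 0.0523).

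Of the 15 other protein-coding genes that start within 500 kb of Cd274, 10 were tested, of which 4 rose, 5 fell and 1 did not pass. Jak2, Ric1 (0.44), 9930021J03Rik (0.33) and Ranbp6 (0.17) rose. Plpp6 fell by 0.52, Plgrkt by 0.42, Ak3 by 0.41, Cdc37l1 by 0.31 and Ermp1 by 0.15, and Rcl1 stood at 0.00. With the Gm42418 covariate the counts were 3 that rose and 2 that fell, and Ranbp6 was also lost with DESeq2 (adjusted p = 0.0566) and without JQ1 replicate 2 of line 1.1 (adjusted p = 0.0502). The 5 not tested were 4430402I18Rik, Insl6, Rln1, Mlana and Pdcd1lg2.

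**Figure D4:**
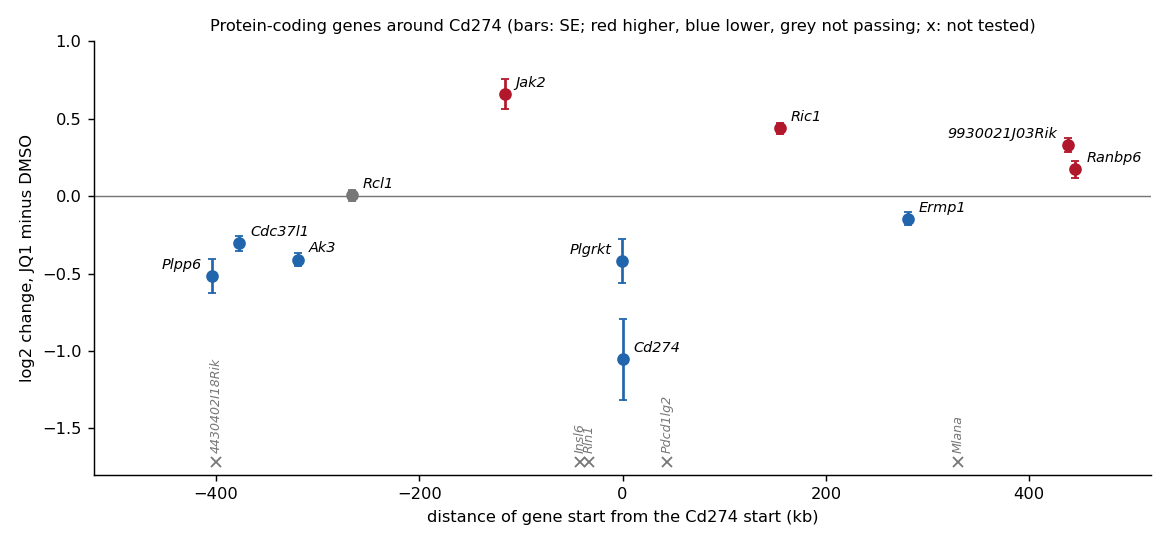
Averaged log2 change with its SE against the distance of each protein-coding gene's start from the start of Cd274 in kb, red where higher, blue where lower and grey where not passing, crosses at the bottom for genes not tested. Plgrkt and Cd274 lie together at 0 kb with changes of -0.42 and -1.05, between Jak2 at 0.66 and Ric1 at 0.44.

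Socs1 lies on chromosome 16, at chr16:10782240-10785536 on the minus strand. Of the 19 other protein-coding genes that start within 500 kb of it, 11 were tested, of which 3 rose, 4 fell and 4 did not pass. Dexi (0.83), Clec16a (0.57) and Litaf (0.13) rose, while Snn fell by 0.89, Rmi2 by 0.73, Gspt1 by 0.21 and Rsl1d1 by 0.13. Tvp23a (0.44), Nubp1 (0.04), Txndc11 (0.00) and Zc3h7a (-0.02) did not pass. The Litaf call was lost when each of 4 libraries was left out, JQ1 replicate 1 (0.12) and DMSO replicate 2 (0.10) of line 1.2 and JQ1 replicate 1 (0.11) and DMSO replicate 1 (0.11) of line 1.1. It was also lost with library totals (0.09, adjusted p = 0.124), with DESeq2 (adjusted p = 0.106) and once Gm42418 was a covariate (adjusted p = 0.143). The Rsl1d1 call was lost with that covariate (-0.05, adjusted p = 0.396). Tvp23a passed without DMSO replicate 1 of line 1.2 (0.75, adjusted p = 0.0148) or DMSO replicate 1 of line 1.1 (0.61, adjusted p = 0.0461). Ciita, the master regulator of MHC class II genes and itself a target of interferon-gamma in other cells, lies in this window and had 45 reads over all libraries, too few to be tested.

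Most of the remaining JAK and STAT genes fell. Of the 7 others tested, 1 rose, 5 fell and 1 did not pass (median -0.42, against 0.00 over all genes). Stat6, which serves interleukin-4, fell by 0.51 (SE 0.04, adjusted p = 8e-11). Stat5b fell by 0.47 and Stat5a by 0.42, and both serve interleukin-2 and related cytokines. Stat2, a partner in the type I interferon complex, rose by 0.46 (SE 0.056, adjusted p = 1.51e-07). Stat5a overlaps Stat3 on the opposite strand by 72 exonic bases, and with no stated strand setting reads of the overlap cannot be told apart.

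Among receptors of related cytokines, 2 of 7 rose, 4 fell and 1 did not pass (median -0.60). Il6ra, the binding chain for interleukin-6, fell by 1.32 (SE 0.054), Il10ra by 0.83 (SE 0.1) and Il10rb by 0.70 (SE 0.084), while Il4ra rose by 0.59 (SE 0.07). The interferon genes Ifng and Ifnb1 had 0 reads in every library.

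The list of other IRF genes and IRF2-binding proteins was divided. Of 9 tested, 5 rose and 4 fell, with a median of 0.30. Among the 6 IRF genes alone 3 rose (Irf3, Irf8 and Irf9) and 3 fell (Irf2, Irf4 and Irf5), with a median of -0.29. Of the IRF2-binding proteins Irf2bp1 and Irf2bp2 rose while Irf2bpl fell. Irf4 and Irf8, which act in B cell development, went opposite ways. Irf4 fell by 1.15 (SE 0.036, adjusted p = 1.99e-18), and Irf8 rose by 0.62 (SE 0.039, adjusted p = 1.28e-12). Irf2, known as an antagonist of IRF1, fell by 1.12 (SE 0.057, adjusted p = 2.35e-14), and Irf5 fell by 1.04 (SE 0.044, adjusted p = 5.44e-16).

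Most of the other inhibitors of JAK and STAT signalling rose. Of 14 tested, 9 rose, 3 fell and 2 did not pass (median 0.19). Sh2b3, an adaptor that restrains JAK2, rose by 0.85 (SE 0.042) and Socs7 by 0.59 (SE 0.044). Socs2 fell by 1.15 (SE 0.041), and Ptpn6, the phosphatase SHP-1, fell by 0.96 (SE 0.047).

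Genes known to be induced by interferon-gamma mostly fell. The list held 40 genes, 38 of them in the file, 7 of these with no reads, and 21 were tested, of which 2 rose, 14 fell and 5 did not pass. Their median was -0.30. Parp14 fell by 2.45 (SE 0.091, adjusted p = 5.1e-17), Dtx3l by 1.69 (SE 0.07, adjusted p = 3.61e-16) and Parp9 by 0.98 (SE 0.072, adjusted p = 2.11e-11), and the DTX3L and PARP9 proteins form a complex. Tap2, a subunit of the peptide transporter for MHC class I, fell by 0.99 (SE 0.064, adjusted p = 1.95e-12).

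The immunity-related GTPases Irgm1, Igtp, Irgm2 and Ifi47 also fell and were singled out after their values were seen. Irgm1 had 77 and 62 reads in line 1.2 with JQ1 and 184 and 200 reads in line 1.2 with DMSO, and fell by 1.41 (SE 0.107). Its libraries of line 1.1 had 70 and 49 reads with JQ1 and 191 and 129 reads with DMSO. Igtp fell by 1.87 (SE 0.257) and Irgm2 by 1.80 (SE 0.289), on 167 and 127 reads over all libraries. Ifi47 fell by 1.13 (SE 0.428, adjusted p = 0.0258) on 63 reads, and in line 1.1 alone its change was -0.46 and did not pass (adjusted p = 0.601). The listed genes that rose, B2m (0.13) and Ifi30 (0.13), act in antigen presentation.

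Between the lines, 7 of the 21 interferon-gamma targets were higher in line 1.2 than in line 1.1 under DMSO and 0 were lower, with a median difference of 0.21, where 3.59% of all genes were higher and 3.17% lower. Under JQ1, 6 were higher and 0 lower, with a median difference of 0.18, where 3.49% of all genes were higher and 2.92% lower. The 21 include 9 genes of the immunoproteasome and of MHC loading, of which 5 were higher under DMSO and 4 under JQ1. The medians over all genes were 0.00 and 0.01 in these comparisons. The line difference of Cd274 had the same sign and did not pass, as given above.

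The PD-1 axis and the B7 family had few expressed members. Pdcd1, which encodes PD-1, had 0 reads, as had Icosl, Vtcn1 and Rgmb. Of the 5 tested, 1 rose, 2 fell and 2 did not pass. Cmtm6, whose protein keeps PD-L1 at the cell surface and protects it from degradation, had 49.4 CPM in each JQ1 library of line 1.2 and 30 and 29.1 CPM in line 1.2 with DMSO. Cmtm6 had 47.1 and 44.1 CPM in line 1.1 with JQ1 and 24.1 and 21 CPM in line 1.1 with DMSO. It rose by 0.87 (SE 0.057, adjusted p = 2.17e-12), with all JQ1 libraries above all DMSO libraries, and so went the other way from Cd274. Its relative Cmtm4 stood at 0.11 (adjusted p = 0.139) and Vsir at -0.28 (adjusted p = 0.411). Cmtm4 passed without DMSO replicate 2 of line 1.1 (0.15, adjusted p = 0.0328), and Vsir passed with the Gm42418 covariate (-0.99, adjusted p = 0.0453).

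The B7 ligands Cd86 and Cd80, which bind CD28 and CTLA-4, fell as well, and CD80 also binds PD-L1 on the same cell. Cd86 fell by 0.92 (SE 0.17, adjusted p = 6.92e-05). Cd80 was named after its values were seen. It had 0 and 1 reads in line 1.2 with JQ1 and 13 and 18 reads in line 1.2 with DMSO, and 2 and 1 reads in line 1.1 with JQ1 and 28 and 18 reads in line 1.1 with DMSO (adjusted p = 3.41e-08). Every JQ1 library was below every DMSO library.

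Genes reported to control the stability of PD-L1 mRNA or protein were mixed, with 6 of 14 that rose, 3 that fell and 5 that did not pass, and a median of 0.12, where 30.7% of all genes rose and 31.3% fell. The number that fell ran from 2 to 5 under the alternatives. Btrc, a ubiquitin ligase subunit that acts on PD-L1, fell by 1.09 (SE 0.052), and Gsk3b, the kinase that marks PD-L1 for it, rose by 0.67 (SE 0.043). Stub1, another ubiquitin ligase, rose by 0.74 (SE 0.05), and Usp22, a deubiquitinase, rose by 0.59 (SE 0.041). Each of these 4 had an adjusted p of 6.7e-12 or less.

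Other factors reported to act on the Cd274 promoter numbered 12, of which 8 rose, 3 fell and 1 was below the threshold (median 0.13). With the Gm42418 covariate, and with library totals in place of TMM, 5 rose. The AP-1 genes Jun and Junb rose by 1.60 (SE 0.08) and 0.84 (SE 0.043). Nfkb1 fell by 0.65 (SE 0.041). Myc rose by 0.62 (SE 0.036), where reads of the transgene and of the endogenous gene are summed. The counts of all these lists, and of the neighbours of Cd274 and Socs1, stand against the same 30.7% of all genes rising and 31.3% falling in the averaged comparison.

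**Figure D5:**
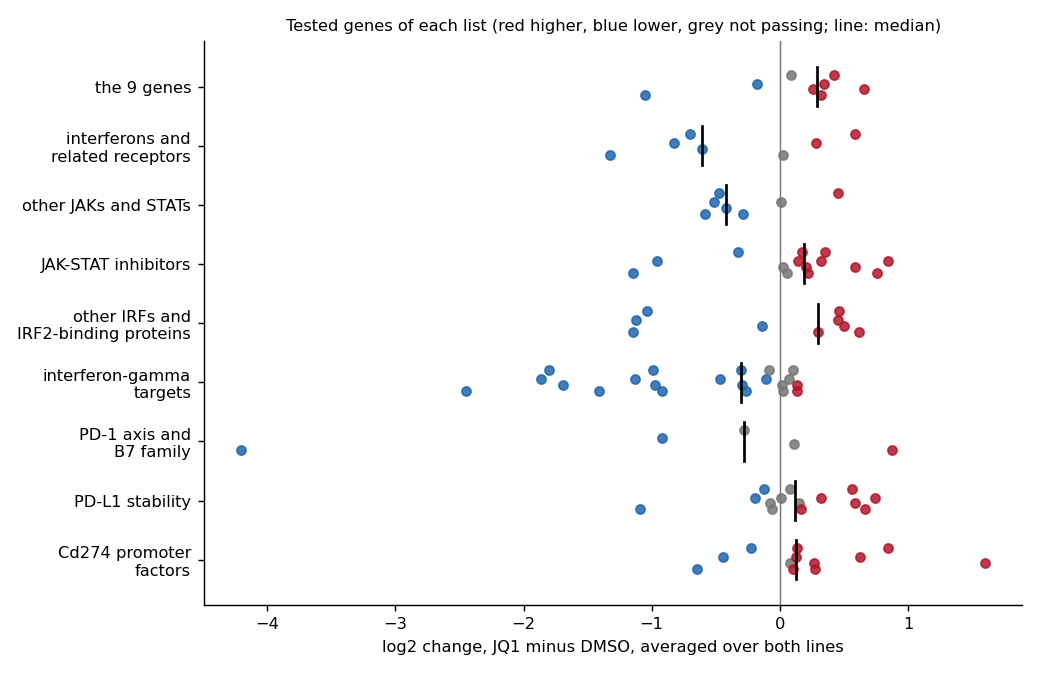
Averaged log2 change (JQ1 minus DMSO) of every tested gene in each list, red where higher, blue where lower and grey where not passing, with a line at each list's median. The interferon-gamma targets have a median of -0.30 and the 8 tested genes of the axis one of 0.29, and the point near -4 is Cd80, whose fitted change rests on at most 2 reads in each JQ1 library.

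The genes whose pattern was most like that of Cd274 were sought among the 8473 genes that averaged 5 CPM or more, by Pearson correlation of log2 CPM over the 8 libraries, which share the treatment contrast. They were Psmc3ip (0.972), Rpgrip1 (0.968), Trib2 (0.966), Zfp512 (0.965) and Cep68 (0.962). For Socs1 they were Adi1 (0.981), Tmcc1 (0.958), Rbbp7 (0.95), Zscan25 (0.95) and Mkks (0.948). The 5 genes nearest to Socs1 had averaged JQ1 changes between 0.05 and 0.18, smaller than that of Socs1 itself. Those nearest to Cd274 changed by -0.449 (Psmc3ip), -0.625 (Rpgrip1), -2.167 (Trib2), -0.391 (Zfp512) and -0.098 (Cep68), against -1.053 for Cd274. The change of Cep68 did not pass the test, and only that of Trib2 was larger than that of Cd274.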

How the data were processed

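The 4 groups of 2 libraries each were taken from the labels. Per the labels' protocols, total RNA was made into libraries by a TruSeq RNA kit from Illumina. The submitters' processing notes name the build GRCm38 (mm10) and, in no stated order or role, TopHat, Bowtie2, HTSeq, cutadapt 1.7, FastQC and limma. The sources used here give no annotation release, strand setting or other version. Reads that overlap genes on opposite strands therefore cannot be told apart, which touches Cd274 (511 exonic bases shared with AC119228.1, which is not in the count file), Irf1 (135 exonic bases shared with Gm17334), Stat3 (72 with Stat5a) and Jak1 (4 with Raver2).

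The deposited values are counts, whole numbers of reads per Ensembl gene that the authors did not normalise. The 5 HTSeq summary lines were left out. Reads assigned to no gene were 12.3 to 14.4% and ambiguous reads 1.54 to 1.67% of a library. Gene models come from GENCODE M21 and promoters from RefSeq (GRCm38.p6), and RPKM uses the merged exon length of M21.

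In R 4.3.3, edgeR 4.0.16 kept 12413 genes by filterByExpr (minimum count 10, minimum total 15), scaled libraries by TMM and fitted 4 group means to all 8 libraries (4 residual degrees of freedom). Contrasts were tested two-sided with the quasi-likelihood F test, Benjamini-Hochberg adjusted over all genes, at 0.05. SE is the log2 change divided by the square root of F. The fit was tested on simulated counts in which all genes had the same spread and few genes changed. These settings differ from the data, so this test does not show how the fit performs on them. Alternatives were other scalings and filters, limma-voom (limma 3.58.1), DESeq2 1.42.0, a Gm42418 covariate, a replicate block, fewer libraries and a threshold of 0.01. Libraries of a group differed beyond sampling noise in every group.

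The members and lists were chosen with earlier results of these data known. From each list, the 4 tested genes of lowest p, or fewer, are named where they average 1 CPM or more. All tested neighbours within 500 kb and the 5 genes most correlated with Cd274 and with Socs1 are named. Of 40 interferon-gamma targets, 2 were not matched by symbol.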

Additional observations from a re-analysis of the deposited data

How the results depend on the processing

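Averaged over the lines, Stat3, Jak1, Jak2 and Ifngr1 kept their direction and call, and Irf1 stayed below the threshold, under all 18 alternatives run. Changes are log2, JQ1 minus DMSO. Cd274 kept its call under 16 of 17 alternatives (adjusted p from 0.000144 to 0.0689), with -0.93 under the Gm42418 covariate and from -1.23 to -0.90 without each library in turn. The filter of 5 CPM in 2 libraries removed Cd274 and gave no value. Ifngr2 (adjusted p from 0.00347 to 0.114) lost its call with DESeq2 at -0.18, at a threshold of 0.01 at -0.18, and in 3 of the runs without a library, which spanned -0.21 to -0.15. Socs1 (adjusted p from 0.000943 to 0.194) lost its call with DESeq2 at 0.43, at the threshold of 0.01 at 0.42, and in 4 of the runs without a library, which spanned 0.27 to 0.65. Pdcd1lg2 has 1 read and no main value, and the unfiltered edgeR fit gave it an adjusted p of 1.

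Replicate numbers were not used to pair the samples in the main fit. The labels name no shared source, and deviations of same-numbered libraries correlated between -0.0603 and 0.0535, which cannot exclude a pairing. With a replicate block, 7816 genes were called for the averaged effect, against 7692 without it, and no averaged call of the 8 genes changed. Counts of calls over all genes moved by more than 1.5 times in these cases. The Gm42418 covariate, whose level was highest in line 1.2 with JQ1, left 2908 genes in line 1.2, against 6136. Genes that differed in response between the lines were 14, and 80 without a filter, 8 with the stricter filter, 8 with DESeq2, 63 with the block, 8 with the covariate, 7 at 0.01 and from 8 to 459 without each library. Genes that differed between the lines under DMSO were 840, and 306 with DESeq2, 445 from those 4 libraries alone, 376 at 0.01 and from 313 to 1318 without each library. Under JQ1 they were 795, and 327 with DESeq2, 343 with the covariate, 1635 from those 4 libraries alone, 370 at 0.01 and from 281 to 1538 without each library. The cause of these shifts was not tested. Library totals in place of TMM gave 3229 genes higher among 7578 called, against 3809 of 7692.

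All changes of sign were in values that had not passed the test. Without each library in turn, Ifngr2 in line 1.1 ran from -0.093 to 0.014 and Irf1 in line 1.2 from -0.121 to 0.006. The line difference in response ran from -0.634 to 0.014 for Cd274, from -0.123 to 0.013 for Jak2 (0.137 with the covariate) and from -0.403 to 0.354 for Socs1. The line difference under DMSO ran from -0.005 to 0.070 for Jak1 and from -0.511 to 0.228 for Socs1. Under JQ1 it ran from -0.188 to 0.053 for Irf1, from -0.065 to 0.009 for Stat3 (0.006 with the covariate), from -0.037 to 0.017 for Jak1 (0.001 with library totals, 0.007 without a filter, 0.018 with the block) and from -0.416 to 0.137 for Socs1 (0.520 with the covariate). Averaged over the lines, Cmtm4 was -0.001 with the covariate and from 0.052 to 0.151 without each library, Vsir ran from -0.595 to 0.133 and Zc3h7a from -0.057 to 0.017. Rcl1 ran from -0.033 to 0.041 (-0.039 with library totals, -0.013 with upper-quartile scaling, 0.000 with the stricter filter) and Nubp1 from -0.002 to 0.082 (-0.005 with library totals). Txndc11 ran from -0.040 to 0.035 (-0.042 with library totals, -0.016 with upper-quartile scaling, -0.003 with the stricter filter, -0.057 with the covariate). Interferon-gamma targets that fell numbered 14, and from 11 to 16 under the alternatives. The depth behind Cd274 was 7 to 40 reads per library.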
